A study of Mus musculus with 4 samples.

Results

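The genes for the protein components of the cytosolic ribosome were examined on arrays of IMS32 cells, a spontaneously immortalized line of adult mouse Schwann cells. They were taken by name, as every gene called Rpl or Rps followed by digits and at most 1 letter or the ending l1, together with Rplp0, Rplp1, Rplp2 and Rpsa, and without the kinase genes whose names begin with Rps6k. This gave 82 of the 31093 gene names on the array and 185 of its 39429 probes for mouse transcripts. The large subunit had 50 genes with 119 probes, and the small subunit had 32 genes with 66 probes. The study asked how Schwann cells respond to a lack of exogenous pyruvate when glucose is high. All cells were kept for 1 h in DMEM with 5% FBS. The medium of [Glc 5 mM/Pyr (+)] held 5 mM glucose and 1 mM pyruvate, and that of [Glc 5 mM/Pyr (−)] held 5 mM glucose and no added pyruvate. The groups [Glc 15 mM/Pyr (+)] and, without added pyruvate, [Glc 15 mM/Pyr (−)] had 15 mM glucose. Where 4 values of a probe are listed without labels, they follow this order. Each condition was measured on 1 array, all on the same slide, so no difference below has a replicate check, and all cells came from the same line.

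Each ribosome joins a small subunit, which reads the mRNA, with a large subunit, which forms the peptide bond, and nearly every ribosomal protein is present once in each particle. Their mRNAs are among the most abundant of a growing cell. In mammals these mRNAs begin with a C and a run of pyrimidines, the terminal oligopyrimidine (TOP) tract, through which mTOR signalling sets how well they are translated, so the output of ribosomal protein can move while the mRNA level does not. The arrays measured the mRNA level and not translation.

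The start of the transcript is shown first because it is the sequence that this gene family is known for. RefSeq start sites (GRCm38.p6) were found for 61 of the 82 genes, with 73 start windows in all. A C at the start followed by pyrimidines to a run of at least 5 bases stood in 13 of the 61 genes (21.3%) and in 3.01% of all 27025 genes with a start site in the same table. The match was required at the annotated base and on the strand of the gene. The windows of 6 of these genes are printed from 10 bases before the start site, 30 bases in all, with the pyrimidine run from the start site in capitals.
Rpl15: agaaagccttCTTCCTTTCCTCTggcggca
Rpl38: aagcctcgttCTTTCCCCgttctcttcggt
Rplp2: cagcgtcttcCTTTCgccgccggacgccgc
Rps6: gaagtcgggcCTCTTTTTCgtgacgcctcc
Rps15a: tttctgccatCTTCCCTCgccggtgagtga
Rps27: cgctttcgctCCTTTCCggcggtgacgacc
They lie at chr14:18270967-18270996 on the minus strand for Rpl15, chr11:114668570-114668599 on the plus strand for Rpl38, chr7:141447641-141447670 on the plus strand for Rplp2, chr4:86857348-86857377 on the minus strand for Rps6, chr7:118116128-118116157 on the minus strand for Rps15a, and chr3:90213629-90213658 on the minus strand for Rps27. The run was 13 bases long in Rpl15 and 5 bases long in Rplp2. Within 250 bases before to 50 bases after the start site, and on either strand, the letters CCGGAAG stood in 39.3% of the 61 genes and in 9.93% of all genes, GGGCGG in 60.7% and 38.2%, and TATAAA in 7 of the 61 genes and 15.7%. The 13 genes with the pyrimidine run had a median log2 difference of 0.031 between Pyr (−) and Pyr (+) at 5 mM glucose and of 0.057 at 15 mM glucose. The other 48 genes with a start site had medians of 0.022 and 0.046. These are matches of letters, and the difference between the sets was not tested. A run that starts beside the annotated base was not counted, so the other 48 genes are not shown to lack a TOP tract.

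The number of mouse probes well above background lay between 28470 and 30344, and no spot was saturated. The 75th percentile of probe intensity, to which each array was scaled, was 1788 with and 1740 without pyruvate at 5 mM glucose, and 1597 with and 1632 without pyruvate at 15 mM glucose. All 13 Schwann cell markers, among them Sox10 and S100b, were well above background on every array, with a summed level of 47.9 to 54.5 times the 75th percentile. The fibroblast list reached 52.4 to 55.7, with 5 of 6 genes above background on every array, the macrophage list 6.78 to 8.86 with 5 of 5, the neuron list 3.67 to 5.43 with 3 of 5 and Syt1 on none, and the endothelial list 2.65 to 3.19 with 2 of 3 and Cdh5 on none. The part of these other cell types in the results was not tested. In these bulk samples, fewer cells and less RNA per cell cannot be told apart.

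The ribosomal protein probes were bright. Of the 185 probes, 182 were well above background on all 4 arrays, 2 on some of them and 1 on none. The last was the single probe of Rps4l, so 81 of 82 genes could be compared. Of the 182 probes, 171 had a mean level above the 75th percentile of all mouse probes. For Rpl41, which encodes the smallest ribosomal protein, the intensity was 291461 with and 307317 without pyruvate at 5 mM glucose, and 306024 with and 313483 without pyruvate at 15 mM glucose. Ribosomal protein genes are known to have many processed pseudogenes. The probes were not aligned to genes or pseudogenes here, so why a probe is placed on another chromosome was not tested. In the mm9 positions that the files give, 59 probes lay on the chromosome of their gene, 123 on another chromosome and 3 were unmapped. For 36 of the 82 genes no probe lay on the gene's own chromosome, and 50 genes had probes on several. Signal from a gene and from near-identical copies cannot be told apart on such probes. Signals of different probes were used here to sort the probes and not to compare transcript levels.

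The size of the measurement error frames every difference below. The spot error that the scanner software gives was 10% of the signal for the median member probe, which makes an error of 0.20 on the log2 scale for the difference between arrays. Over the 182 probes it was also 10% at its lowest, and it was 18.8% at its highest, on the dim probe of Rpl3l. Over the 281 probes printed 10 times and well above background, the median SD between spots of the same probe was 0.070 to 0.074 on the log2 scale. Over the 12 of them more than 4 log2 units above the 75th percentile, where 159 of the 182 ribosomal protein probes lay, it was 0.042 to 0.048. For the 57 genes with several probes, the median SD between probes of a gene was 0.043 to 0.070. These errors cover the array and leave out the variation between cultures.

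Ribosomal protein mRNAs hardly differed after pyruvate was left out at 5 mM glucose. In this comparison, Pyr (−) minus Pyr (+), 0 of 81 genes reached 1.5-fold, against 3.46% of the 22949 genes measured, and 0 reached 2-fold, against 1.18%. The share among equally bright genes is not given, here or in the comparisons below. The median log2 difference was 0.022 for the large subunit and 0.031 for the small subunit, beside −0.019 for all genes. Under scaling to the spike-in controls, both medians turned negative. In the large subunit the differences ran from −0.14 for Rpl39l to 0.32 for Rpl10l, and in the small subunit from −0.055 for Rps9 to 0.12 for Rps26. Of 182 probes, 181 differed by less than 1 error of the scanner software, which is wider than the SD between spots.

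**Figure D1:**
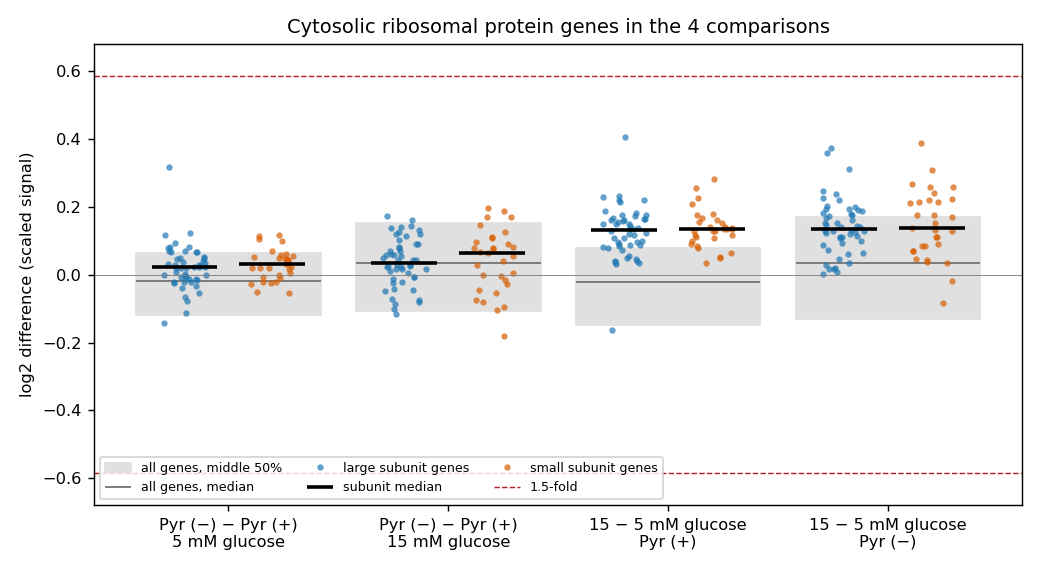
Log2 difference of each cytosolic ribosomal protein gene in the 4 comparisons, after scaling to the 75th percentile, with large subunit genes in blue, small subunit genes in orange and black bars at their medians. The grey boxes hold the middle 50% of all genes and the dashed lines mark 1.5-fold, which no ribosomal protein gene reached; the shift of both subunits above 0 in the glucose comparisons turned negative when the arrays were scaled to spike-in controls.

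At 5 mM glucose the highest large subunit genes were Rpl36a and Rpl41, besides Rpl10l. Rpl36a gave nearly the same difference on its 3 probes, 0.12 with an SD of 0.0037. Its probe on chromosome X, where the gene lies, read 94279 with and 99649 without pyruvate at 5 mM glucose, and 98224 with and 106385 without pyruvate at 15 mM glucose. The array with both 5 mM glucose and pyruvate was the lowest for this probe, and the array with 15 mM glucose and no pyruvate was the highest. Rpl41 was higher by 0.12 on 1 probe. In the small subunit Rps26, which lies at the mRNA exit, was higher by 0.12, Rps14 by 0.11 and Rps12 by 0.11 with an SD of 0.13 over 2 probes. The lowest small subunit genes were Rps9 at −0.055, Rps27l at −0.051 and Rps2 at −0.026, and the lowest large subunit genes after Rpl39l were Rpl3l at −0.11 and Rpl15 at −0.078.

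At 15 mM glucose the differences with pyruvate were again small but more spread. None of the 81 genes reached 1.5-fold, against 6.76% of the 21885 genes measured, and none reached 2-fold, against 2.16%. The median was 0.036 for the large and 0.065 for the small subunit, beside 0.033 for all genes, and the large subunit median was −0.0003 under spike-in scaling. The SD over the 182 probes was 0.10, compared with 0.068 at 5 mM glucose. Of the 182 probes, 174 differed by less than 1 error of the scanner software. Differences ran from −0.11 for Rplp1 to 0.17 for Rpl22l1 in the large subunit, and from −0.18 for Rps14 to 0.20 for Rps27l in the small subunit.

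The lowest genes at 15 mM glucose had bright probes. Rps14, a protein of the small subunit platform, read 245652 with and 258520 without pyruvate at 5 mM glucose, and 253649 with and 228661 without pyruvate at 15 mM glucose. Before scaling, the array with 15 mM glucose and no pyruvate was the lowest of the 4 for this probe. After scaling, the array with 5 mM glucose and pyruvate was the lowest, so which array was lowest depended on the scaling. Rplp1 and Rplp0, components of the stalk that recruits translation factors to the large subunit, were at −0.11 with an SD of 0.037 over 2 probes and at −0.085 with an SD of 0.061 over 3 probes. The other stalk gene, Rplp2, was at 0.016. Rpl35, near the exit of the peptide tunnel, was at −0.10, Rps15 at −0.11 and Rps12 at −0.095. At 5 mM glucose Rps14, Rplp1, Rplp0, Rpl35, Rps15 and Rps12 were all above 0, from 0.036 for Rpl35 to 0.11 for Rps14, but under spike-in scaling all 6 were below 0 there, from −0.15 for Rpl35 to −0.076 for Rps14.

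The highest genes at 15 mM glucose were for the most part below 0 or near it at 5 mM glucose. Rps27l, a paralogue of Rps27 known as a target of p53, read 106428 with and 99996 without pyruvate at 5 mM glucose, and 104857 with and 122797 without pyruvate at 15 mM glucose. Rpl22l1, the paralogue of Rpl22, read 36033, 34145, 36032 and 41479. In both, the array with 15 mM glucose and no pyruvate was the highest and the array with 5 mM glucose and no pyruvate the lowest. Rps25 was at 0.19 with an SD of 0.069 over 2 probes, Rps9 at 0.17, Rpl26 at 0.14 with an SD of 0.070 over 3 probes, and Rpl3l at 0.16 on 1 dim probe. The parent genes Rps27 and Rpl22 were at 0.028 and 0.022.

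The signs of the pyruvate differences at the 2 glucose concentrations depended on the scaling. After scaling to the 75th percentile, 106 of the 182 probes (58.2%) had opposite signs, against 49.3% of the 27407 other probes, with 52 higher at 5 mM and lower at 15 mM glucose and 54 the reverse. Among the 81 genes, 30 were then higher at both, 2 lower at both, 23 higher at 5 mM only and 26 higher at 15 mM only. By probe, 63 of 182 were higher and 13 lower at both, beside 6963 and 6927 of the 27407 other probes. In the unscaled intensities 31 genes were higher at 5 mM and 65 at 15 mM glucose. By probe these were 69 and 135 of 182, beside 8828 and 16863 of the 27407 other probes. Under spike-in scaling 1 gene was higher at 5 mM and 43 at 15 mM, and 37 were lower at both. By probe, 3 and 89 of 182 were then higher, beside 2332 and 13226 of the 27407 other probes. Lower at both were 90 of the 182 and 13020 of the others. Across the 182 probes Pearson's r between the 2 differences was −0.33. This r does not change with a constant of the array. The probes share the 4 arrays and are not independent replicates, and this r is given as a description.

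**Figure D2:**
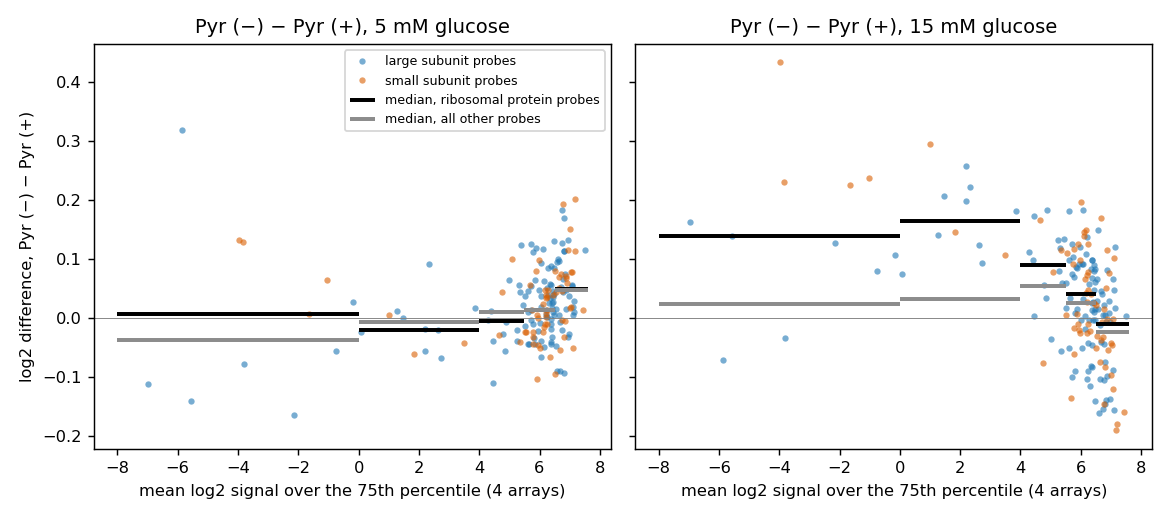
Pyruvate difference of each ribosomal protein probe (y axis, log2) against its mean log2 signal over the 75th percentile (x axis), at 5 mM and 15 mM glucose, with large subunit probes in blue and small subunit probes in orange. Black bars are medians of the ribosomal protein probes within 5 signal classes and grey bars those of all other probes; at 15 mM glucose the black bars go from 0.14 in the dimmest class to −0.0095 in the brightest.

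The difference at 15 mM glucose went with the brightness of the probe. Across the 182 probes Pearson's r between the mean level and this difference was −0.46, and with the difference at 5 mM glucose it was 0.14. The 11 probes below the 75th percentile had a median difference of 0.14 at 15 mM glucose, and the 12 probes at 0 to 4 log2 units above it had 0.16. The median was 0.089 for 18 probes at 4 to 5.5, 0.041 for 83 probes at 5.5 to 6.5 and −0.0095 for 58 probes above 6.5. All other probes on the array also went below 0 in the brightest class, with medians of 0.024, 0.033, 0.055, 0.026 and −0.023 in the same order. At 5 mM glucose the brightest class was at 0.049 for ribosomal protein probes and 0.047 for all other probes. The part of the signal level in the result was not tested.

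The same pattern was present within genes. Over all 57 genes with several probes, the dimmest probe had the higher difference at 15 mM glucose in 40, with a median of 0.086 on dim and 0.0044 on bright probes. In 17 genes the brightest and the dimmest probe were at least 8-fold apart in signal. At 15 mM glucose the difference with pyruvate was higher on the dim probe in 15 of these 17 genes, with a median of 0.20 on dim and −0.0019 on bright probes. Rpl15 and Rpl6 were the exceptions. At 5 mM glucose the dim probe was the higher in 5 of 17, with medians of 0.0003 and 0.025. Counts for other genes with several probes are not given here. The pattern is therefore not shown to be particular to ribosomal protein genes.

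**Figure D3:**
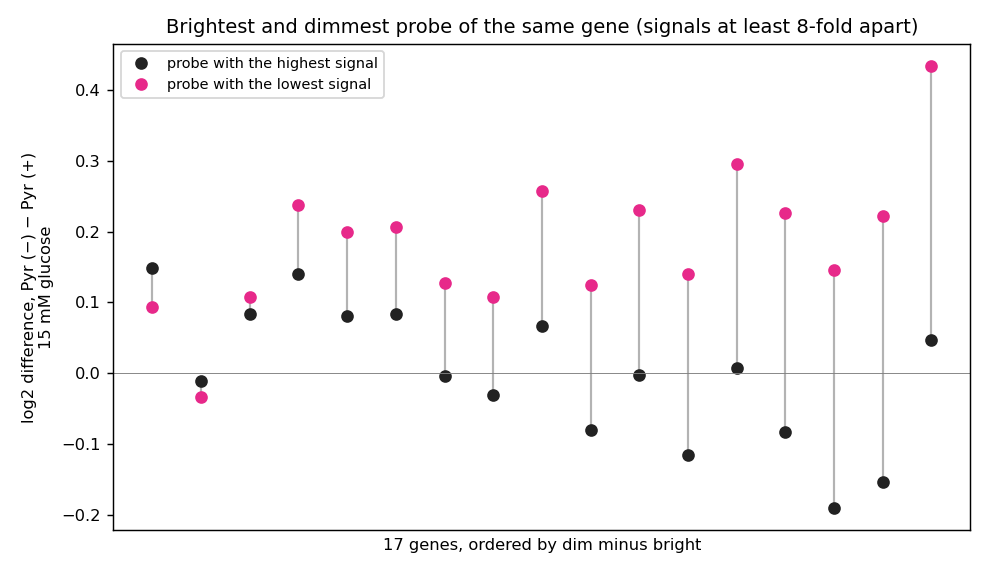
Log2 difference, Pyr (−) minus Pyr (+), at 15 mM glucose on the probe with the highest signal (black) and the probe with the lowest signal (pink) of the 17 genes whose probes were at least 8-fold apart in signal, ordered along the x axis by dim minus bright. The pink point lies above the black one in 15 of the 17 genes.

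The sequences of such pairs are shown because the bright and the dim probe listed for a gene differ in sequence. The probes were not aligned, so whether both read the same gene was not tested. The last 30 of the 60 bases of the probe are printed, with AATAAA or ATTAAA, the letters of the usual polyadenylation signal, in capitals where present.
Rps3 bright: gatgctaccttgtaaagacatttAATAAAa
Rps3 dim: ctctgcctcagggtattatgAATAAAgtgt
Rpl23 bright: taaaatatattcATTAAAgtctctgctctg
Rpl23 dim: tgggaccaggtacacataacacagataaat
Rpsa bright: gatggaaggaaAATAAAgttgctaaaagct
Rpsa dim: gaacaaagttaatgctaaaaagttaatgcc
Rps15a bright: atggcagaacaacctgctcccttcacgtca
Rps15a dim: atgatgagtcaccatcattcttggtgaatc
In mm9, the bright probes lie at chr7:106627408-106627786 for Rps3, chr6:66825269-66825328 for Rpl23, chr10:128213358-128213417 for Rpsa and chr5:106226440-106226499 for Rps15a, all on the minus strand. The dim probes lie at chr7:106626430-106626489 on the minus strand for Rps3, chr11:97638917-97638976 on the minus strand for Rpl23, chr9:120040967-120041026 on the plus strand for Rpsa and chr7:125248322-125248381 on the minus strand for Rps15a. The dim probes of these 4 genes lie on the chromosome of the gene, and the bright probes of Rpl23, Rpsa and Rps15a lie on another.

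The files give a start for each probe that they do not define, and it was taken as the position in the transcript listed with the probe. In 11 of the 17 genes both probes refer to the same transcript, and in 10 of these the dim probe has the higher start. The start of the bright and the dim probe was 492 and 925 in Rpl23, 990 and 1340 in Rpsa, 589 and 1274 in Rps6, and 250 and 4642 in Rps15a. Over the 17 genes the median start was 492 for bright and 925 for dim probes. The polyadenylation letters were present in 8 of the bright and 5 of the dim probes, in 37.3% of all 185 ribosomal protein probes and in 16.7% of all 39429 mouse probes.

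The dim probe of Rpl23 gives the best measure of spot error, since it was printed 10 times on each array. Rpl23 is a large subunit protein known to bind Mdm2. Its geometric mean intensity was 8127 with and 8429 without pyruvate at 5 mM glucose, and 7987 with and 9517 without pyruvate at 15 mM glucose, with an SD of 0.062 to 0.069 on the log2 scale over the 10 spots. The 10 spots of [Glc 15 mM/Pyr (−)], at 8738 to 10124, did not overlap with those of [Glc 15 mM/Pyr (+)], at 7313 to 8395. The spots of the 5 mM arrays, at 7456 to 8719 and 7645 to 8919, did overlap. These intensities are not scaled between arrays. The share of other probes printed 10 times whose spots did not overlap is not given here, so the separation is not shown to be particular to Rpl23. The brightest probe of Rpl23 went the other way, with 191214 in the presence and 175590 in the absence of pyruvate at 15 mM glucose. The 10 spots share an array and say nothing of the variation between cultures.

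Other pairs showed the size of the gap between probes. The dim probe of Rps3, a protein at the mRNA entry channel, read 3326, 3247, 3144 and 3939, while its brightest probe read 99866, 102704, 97278 and 99874. Before scaling, the last array stood above the other 3 on the dim probe and not on the brightest one. After scaling, the last array was the highest on both probes. Its log2 difference from [Glc 15 mM/Pyr (+)] was then 0.29 on the dim and 0.0074 on the brightest probe. The dim probe of Rps15a differed by 0.43 at 15 mM glucose, the largest pyruvate difference of any ribosomal protein probe, but at that glucose concentration its intensity was only 90.1 with and 124 without pyruvate, and the other 2 probes of the gene were at 0.047 and 0.027.

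Raising glucose moved the scaled level of nearly every ribosomal protein gene the same way, by a small amount. With pyruvate present, 80 of 81 genes were higher at 15 mM than at 5 mM glucose, against 44.4% of all genes measured. Without pyruvate 79 of 81 were higher, against 56.2%, but both subunits turned lower under scaling to the spike-in controls. No gene reached 1.5-fold in either comparison, against 3.33% of 22240 and 7.43% of 22239 genes, and none reached 2-fold, against 1.0% and 2.45%. With pyruvate the median was 0.13 for the large and 0.13 for the small subunit, beside −0.022 for all genes. Without pyruvate it was 0.14 for each, beside 0.034 for all genes. With pyruvate 152 of 182 probes differed by less than 1 error of the scanner software, and without it 135 did. Rpl3l, at −0.16, was the only gene lower with pyruvate present, and Rps14, at −0.085, and Rps12, at −0.020, were the genes lower without it.

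**Figure D4:**
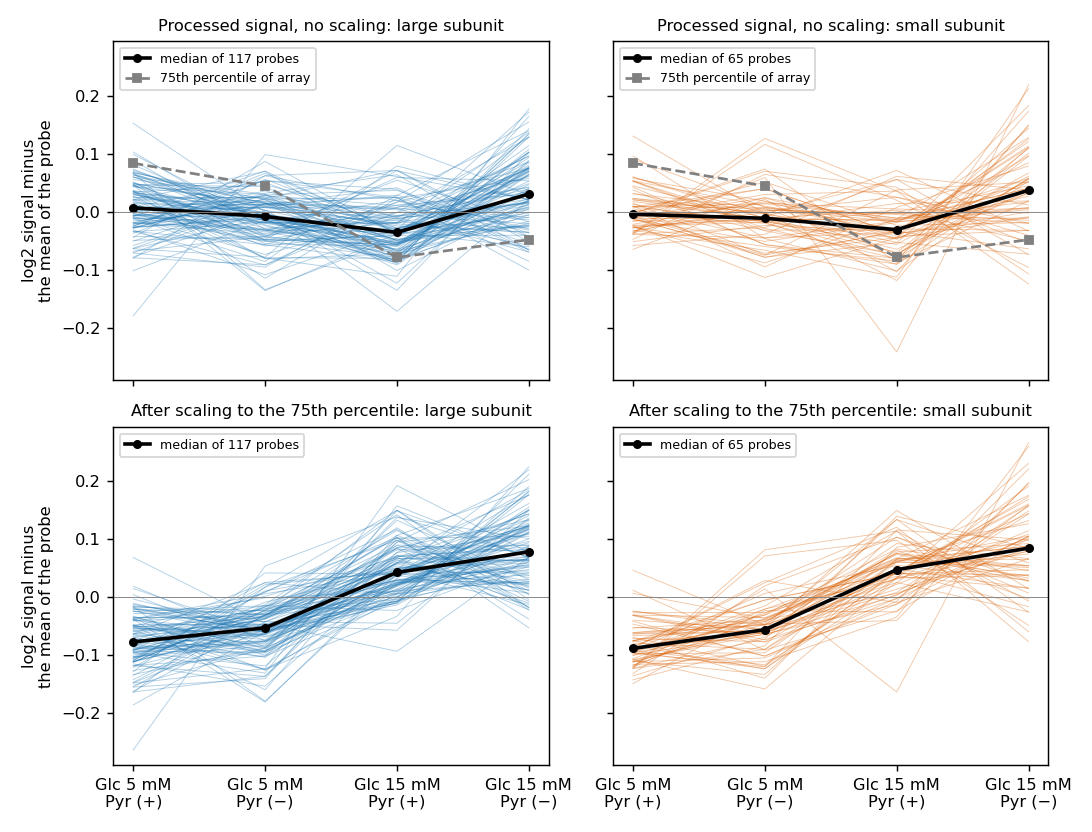
Log2 signal of the 117 large subunit probes (blue) and 65 small subunit probes (orange) well above background on all 4 arrays, each minus its own mean over the arrays, before scaling (top) and after scaling to the 75th percentile (bottom), with the median in black. Before scaling the 75th percentile of the array (grey dashes) goes down from the 5 mM to the 15 mM arrays, while the gene median differs by −0.029 with and 0.046 without pyruvate. After scaling to the 75th percentile both subunits are higher at 15 mM glucose, and under spike-in scaling both are lower.

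The glucose difference depended on the scaling. In the unscaled intensities the median over the 81 genes was −0.029 with pyruvate and 0.046 without it, and 21 and 57 of the 81 genes were higher at 15 mM glucose. The 75th percentile of the arrays differed by −0.16 and −0.093 in the same comparisons, and the median of all genes by −0.18 and −0.059. The large and small subunit medians were above that of all genes by 0.15 and 0.16 with pyruvate and by 0.10 for each without it, and a constant of the array, as in spike-in scaling, leaves this gap as it is. After quantile normalization the gaps were 0.033 and 0.029 with pyruvate and 0.021 and 0.024 without it, and after cyclic loess 0.038 and 0.036 with pyruvate and 0.0023 and 0.014 without it. Other bright probes had similar values after scaling to the 75th percentile. In the class at 5.5 to 6.5 log2 units above it the glucose median with pyruvate was 0.12 for ribosomal protein probes and 0.10 for all other probes, and above 6.5 it was 0.17 and 0.13. Without pyruvate these medians were 0.14 and 0.13, and 0.070 and 0.059. Of the other probes in these classes, 492 of 529 and 169 of 176 were higher at 15 mM glucose with pyruvate. Without pyruvate 454 of 529 and 134 of 176 were higher.

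**Figure D5:**
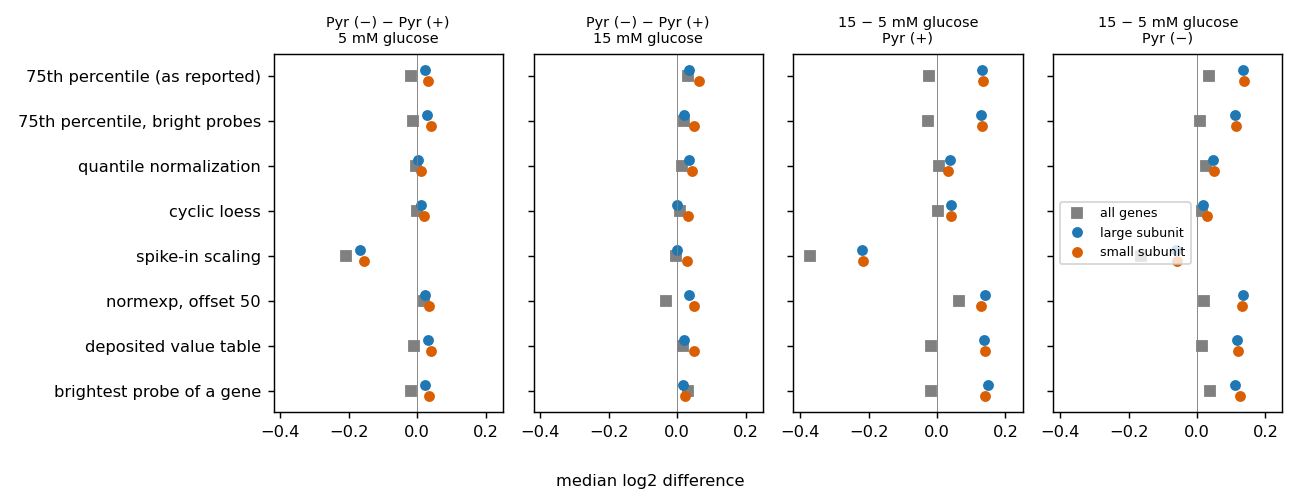
Median log2 difference (x axis) of the large subunit genes (blue), the small subunit genes (orange) and all genes (grey squares) in the 4 comparisons, for each way of processing the arrays (rows). Spike-in scaling moves all 3 medians to the left, to −0.22 for both subunits in the glucose comparison with pyruvate, where scaling to the 75th percentile gives 0.13.

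An additive fit of pyruvate and glucose by limma over all 4 arrays, with 1 residual degree of freedom, called no probe. At a Benjamini-Hochberg adjusted p under 0.05, 0.0% of the 31274 probes were called for pyruvate and 0.0% for glucose, and 0 of the 184 ribosomal protein probes tested. At an unadjusted p under 0.05 there were 1077 probes for pyruvate and 1496 for glucose, of which 0 and 0 were ribosomal protein probes. With an intensity trend in the variance, 71 of the 184 ribosomal protein probes (38.6%) were under 0.05 for glucose, all higher at 15 mM. Of all probes, 8.67% were under 0.05 in either direction and 4.36% were under 0.05 and higher. The share among other bright probes is not given here, and none was called after adjustment. Under spike-in scaling both subunit medians were lower at 15 mM glucose. Without that trend, the lowest Benjamini-Hochberg adjusted p of a ribosomal protein probe was 0.985 for pyruvate and 0.772 for glucose. This fit takes the opposite signs of the pyruvate difference at the 2 glucose concentrations as error, and its count of 0 does not show that the levels did not differ.

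Proteins with known roles outside the bulk of the ribosome had small differences as well. Rps6, the substrate of the S6 kinases, was at −0.010 at 5 mM and 0.065 at 15 mM glucose with pyruvate left out. Rpl5 and Rpl11, which bind Mdm2 together with 5S rRNA when ribosome assembly fails, went in opposite directions at 15 mM glucose, at 0.13 on 1 probe and −0.080 with an SD of 0.071 over 3 probes. Rps19, mutated in Diamond-Blackfan anaemia, was at 0.11 on 1 probe. Rpsa, also known as the laminin receptor, was at 0.081 with an SD of 0.14 over 4 probes, so its probes disagreed by more than the difference. Rpl10, one of the last proteins to join the large subunit, was at −0.024, Rpl13a at 0.071, Rpl38, which some Hox mRNAs need for translation, at 0.026 and Rps27a, which is made as a fusion with ubiquitin, at 0.056 with an SD of 0.15.

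The paralogues with restricted expression had dim probes. Rpl10l, known from testis, had 2 probes, of which the brighter read 25.4, 30.8, 30 and 29.2. The array with 5 mM glucose and pyruvate was the lowest of the 4, which gave the largest gene difference of the family within each of 2 comparisons, 0.32 for leaving out pyruvate at 5 mM glucose and 0.41 between the glucose concentrations with pyruvate. On the other Rpl10l probe, only [Glc 5 mM/Pyr (+)] was well above background, at 11.9. The bound for [Glc 5 mM/Pyr (−)] was 1.17-fold lower, in the opposite direction to the brighter probe. The median spot error of this dim probe was 38.0% of the signal, so the bound lies within it and the direction is not settled. Rpl39l, also known from testis, read 37.1, 32.7, 35 and 39.3, and Rpl3l, known from muscle, read 14.9, 13.4, 11.9 and 13.6. Rps4l was not well above background on any array. Their widely expressed counterparts were Rpl10, Rpl39 at 0.041 and 0.083, Rpl3 at 0.023 and 0.029, and Rps4x at −0.023 and 0.039 with pyruvate left out at 5 mM and 15 mM glucose. Rpl7l1, a nucleolar relative of Rpl7, was at −0.055 and 0.079, and Rpl7 at −0.012 and 0.044.

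Ribosomal proteins whose names fall outside the rule were close to the family. Fau, a fusion of a ubiquitin-like protein with a small subunit protein, was at −0.062 and 0.0097 with pyruvate left out at 5 mM and 15 mM glucose, and Gnb2l1, the small subunit scaffold also called Rack1, at 0.048 and −0.059. Rps3a1 was at −0.046 and 0.041 and Rpl36al at 0.050 and 0.016. The transcription factor Myc, which drives many genes of ribosome synthesis, was at −0.28 and 0.018, with intensities of 6216 with and 4988 without pyruvate at 5 mM glucose, and 4628 with and 4788 without pyruvate at 15 mM glucose. The array with 5 mM glucose and pyruvate was the highest for Myc, and the other 3 lay close together.

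Other genes of protein synthesis were set beside the family. Other TOP mRNAs, for translation factors and related proteins, were measured for 19 genes, and their median pyruvate difference was −0.0038 at 5 mM and 0.012 at 15 mM glucose. Their median glucose difference was 0.075 in either state of pyruvate. The 46 genes of ribosome biogenesis, such as the RNA polymerase I subunits and the nucleolar proteins Ncl and Fbl, had medians of −0.0027 and 0.086 for pyruvate and −0.0092 and 0.099 for glucose. None of the genes on these lists reached 1.5-fold in a pyruvate comparison. The lowest of them at 15 mM glucose were Rrp12 at −0.42 and Polr1a at −0.38, and the highest was Nop10 at 0.31. Mitochondrial ribosomal protein genes, measured for 76 of 77 names, had medians of −0.013 and 0.12 for pyruvate, with 30 and 71 of 76 genes higher, and 0.060 and 0.18 for glucose. At 15 mM glucose the cytosolic family was higher without pyruvate in 56 of 81 genes, against 56.9% of all genes measured. The difference between the lists was not tested.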

How the data were processed

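Cy3-labelled cRNA was hybridized to Agilent Whole Mouse Genome arrays, 1 per condition. The authors deposited Feature Extraction output (version 11.5.1.1), with the processed intensity of each spot after background correction and no scaling between arrays. They also deposited a table that holds the ratio of this intensity to a constant of each array. All 44397 rows matched it within 1e-06. GeneSpring settings were not given in the sources used here.

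Outlier and control spots were left out, spots of a probe were averaged, and log2 intensity was taken minus the 75th percentile of 39429 mouse probes. A difference was used where the probe was well above background on both arrays. Differences of probes were averaged within a gene. Where only 1 of both arrays was above background, a lower bound was set against the lowest signal well above background or the probe's own signal, whichever was higher. The additive fit used limma 3.58.1 in R 4.3.3, with Benjamini-Hochberg adjustment at 0.05, on the 31274 probes that passed background on any array. Other steps used Python 3.11.15. The calculations were tested on simulated data. Positions of probes are mm9, as deposited. Start sites are RefSeq, GRCm38.p6.

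Named genes are members past 1.5-fold, the 3 highest and 3 lowest of each subunit in each pyruvate comparison, genes with known roles, paralogue pairs, Fau, Gnb2l1 and Myc. Rps3a1, Rpl36al, Rpl23, Rps15a, Rrp12, Polr1a and Nop10 were named after their values were seen. Some genes that were measured are not reported here. Members and lists were chosen with earlier results of these data known. The alternatives were the 75th percentile of bright probes, quantile normalization, cyclic loess, spike-in scaling (8 of 10 controls), normexp (offset 50), the ratio as deposited, the brightest probe, other filters on dim probes, leaving out paralogues or genes on several chromosomes, 2-fold, an intensity trend, and probes on the gene's own chromosome, which was added after seeing the data.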

Additional observations from a re-analysis of the deposited data

Results flagged for a closer look

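Among the named genes, 3 had pyruvate differences in opposite directions at the 2 glucose concentrations, each past the error between spots of a difference, 0.10 on the log2 scale, but all within the 0.20 that the spot error of the scanner software gives for the median ribosomal protein probe. The values are the difference at 15 mM glucose minus that at 5 mM glucose, on the log2 scale, and in each gene they rest on 1 probe and 4 arrays. The gap was 0.28 for Rpl39l, from −0.14 to 0.14, and 0.28 for Rpl3l, from −0.11 to 0.16. It was −0.29 for Rps14, from 0.11 to −0.18, and under spike-in scaling both values of Rps14 were below 0, at −0.076 and −0.22. The difference between the glucose concentrations was not tested, since a single array per condition leaves no error for it. Rpl39l and Rpl3l had intensities under 40 and spot errors of 11.6% and 18.8% of the signal, and with normexp background correction both signs turned, to 0.0054 and −0.11 for Rpl39l and to 0.094 and −0.097 for Rpl3l.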

How the results depend on the processing

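Of 96 medians of a subunit computed under an alternative, 7 changed sign, all under spike-in scaling. It gave −0.1663 for the large and −0.1571 for the small subunit in the pyruvate comparison at 5 mM, −0.2186 and −0.2168 between glucose concentrations with pyruvate, and, without it, −0.0623 and −0.0596. It moved the median of all genes to −0.21, −0.37 and −0.16 in the same comparisons. The other change of sign was to −0.0003 for the large subunit in the pyruvate comparison at 15 mM, which cyclic loess put at 0.0003. Under cyclic loess the glucose medians without pyruvate were 0.0174 and 0.0292. With no filter on dim probes, 1 gene passed 1.5-fold in the pyruvate comparison at 15 mM and 1 in the glucose comparison with pyruvate, in both cases Rps4l. The cause of these shifts was not tested. Among 710 values of single genes, 662 moved by less than the error between spots of a difference, 0.10 on the log2 scale, and 63 changed sign, and of the 70 changes of sign over all these values 34 came under spike-in scaling. Taking only the brightest probe, the pyruvate medians at 15 mM glucose were 0.016 and 0.022. The additive fit called 0 probes under every alternative. With normexp, 7 of 184 ribosomal protein probes had an unadjusted p under 0.05 for glucose.

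No paired analysis was possible because each condition has 1 array and the labels give no replicate numbers. No alternative replaces a replicate, which these 4 arrays lack.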
